A study of Mus musculus with 6 samples.

Results

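The genes described here were chosen by their levels in mouse top lip tissue: in each of the 3 libraries labelled KO they had at most 0.5 times the lowest of the 3 WT levels, the lowest WT level was at least 1 CPM, and symbols of keratin genes were left out. The rule was met by 25 of the 26814 genes counted, which is 0.175% of the 14303 non-keratin genes with at least 1 CPM in every WT library. CPM, the level used throughout, is the read count of a gene per 1000000 counts of its library. The mirror rule, with at least 1 CPM in every library labelled KO and at most 0.5 times of it in every WT library, was met by 289 genes. Since the differences between these same libraries chose the 25 genes, their folds are a description and carry no test.

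Each library came from the top lip of 1 adult female mouse on the C57BL/6J background. The 3 KO mice were homozygous for the targeted allele Gtf2ird1tm1Hrd in the germ line, and the 3 WT mice were wild type at this gene. Total counts on genes lay between 20164081 and 29491767 per library. Gtf2ird1 itself, the targeted gene, stood at 77.5, 74.9 and 67.1 CPM in WT1, WT2 and WT3 and at 161, 167 and 142 CPM in KO1, KO2 and KO3, so the count of the gene was higher where the label says KO and KO1 to KO3 are used below as library labels. KO3 stood apart from KO1 and KO2. Without it 194 genes met the rule, against 34 to 54 genes without any other single library. Leaving out a library can only add genes to the rule, so all 25 stay in each case by construction. WT1 held 1970 CPM of Krt4 and 2780 CPM of Krt13, keratins of the oral lining, against 62.2 and 118 CPM in WT2 and 8.93 and 19 CPM in WT3. Whether the dissected area differed between mice was not tested, and this bears on the lists of lip tissues and on genes highest in WT1, such as Cyp2f2, Acsm1 and Plin5.

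The lip joins several tissues in a small piece: haired skin with follicles and sebaceous glands on the outer face, the vermilion at the margin, oral mucosa with minor salivary glands inside, and the striated orbicularis muscle between them. Epithelia that face the outside carry cytochrome P450 enzymes, carboxylesterases and lipid-handling proteins that oxidise or hydrolyse foreign compounds and fatty substrates. Striated muscle takes its calcium signal from a voltage-gated channel built of several subunits. By known function of the 25 genes, 6 act in lipid, steroid or xenobiotic metabolism, 4 are ligands or receptors at the cell surface, 3 are proteases or secreted inhibitors, 2 are transporters or transport receptors of folate and iron, 3 are known from ectodermal development or protein turnover, 1 is a subunit of the muscle calcium channel, 2 are protein-coding genes with no assigned function, and 4 are non-coding.

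The metabolic genes form the largest group, and the bases before their start sites are printed to show the letters that the searches below count. RefSeq promoter sequences of GRCm38.p6 were at hand for 17 of the 25 genes. Of the metabolic genes, Hsd17b14 had no sequence. Cyp2w1 had one, which is not printed and holds neither of the motifs marked below in its 250 bases. For 4 of the metabolic genes the 250 bases before the RefSeq start follow, 5′ to 3′ on the strand of the gene, with CAGCTG (an E-box) and TGACCT (a nuclear receptor half-site, or AGGTCA on the other strand) in capitals. The windows are chr7:119617562-119617811 (plus strand) for Acsm1, chr8:104947106-104947355 (plus) for Ces2f, chr7:27119705-27119954 (plus) for Cyp2f2 and chr17:56117549-56117798 (minus) for Plin5. The RefSeq start of Acsm1 lies 10786 bases inside the GENCODE gene, and those of the other genes lie within 48 bases of the GENCODE start.
Acsm1: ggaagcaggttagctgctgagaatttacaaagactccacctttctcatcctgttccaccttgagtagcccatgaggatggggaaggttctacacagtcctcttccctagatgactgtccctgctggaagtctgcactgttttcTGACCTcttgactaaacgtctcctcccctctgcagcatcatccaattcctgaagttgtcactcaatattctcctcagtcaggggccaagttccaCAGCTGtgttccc
Ces2f: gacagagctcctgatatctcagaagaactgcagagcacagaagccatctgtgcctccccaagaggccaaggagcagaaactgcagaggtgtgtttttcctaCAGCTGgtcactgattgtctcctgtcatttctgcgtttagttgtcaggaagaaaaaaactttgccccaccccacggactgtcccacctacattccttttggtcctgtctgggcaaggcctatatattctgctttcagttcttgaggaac
Cyp2f2: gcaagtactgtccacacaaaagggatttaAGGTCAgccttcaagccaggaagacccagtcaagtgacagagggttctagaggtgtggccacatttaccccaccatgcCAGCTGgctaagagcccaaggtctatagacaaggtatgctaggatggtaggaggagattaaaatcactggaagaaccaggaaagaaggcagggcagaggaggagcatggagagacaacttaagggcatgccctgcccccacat
Plin5: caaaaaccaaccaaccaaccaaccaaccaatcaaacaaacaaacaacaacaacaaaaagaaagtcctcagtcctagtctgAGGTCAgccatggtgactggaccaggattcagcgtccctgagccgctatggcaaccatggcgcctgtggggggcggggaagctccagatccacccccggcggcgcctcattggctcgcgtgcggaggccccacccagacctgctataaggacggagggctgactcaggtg
Acsm1 and Cyp2f2 hold 1 E-box and 1 half-site each in these bases, Ces2f holds 1 E-box only and Plin5 holds 1 half-site only.

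Acsm1 had the lowest ratio of all 25 genes. It encodes a mitochondrial acyl-CoA synthetase of medium-chain fatty acids, best known from liver and kidney, and lies on chromosome 7 (119607026 to 119662515, plus strand). Its level was 4.10, 2.54 and 2.35 CPM in WT1, WT2 and WT3 and 0.149, 0.305 and 0.405 CPM in KO1, KO2 and KO3, the last 3 values resting on 3, 9 and 9 counts. The mean of the libraries labelled KO was 9.56% of the WT mean, the lowest percentage of any member, and the log2 fold change was -3.35 (standard error 0.40). In bulk tissue, here and for each gene below, fewer cells of a type and less RNA per cell cannot be told apart.

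Cyp2w1 and Cyp2f2 are microsomal cytochromes P450 of family 2, the former known from fetal gut and the latter from lung club cells and liver. Cyp2w1 (chromosome 5, 139352617 to 139357033) stood at 4.71, 8.53 and 6.36 CPM in the WT libraries and at 0.793, 1.53 and 1.04 CPM in KO1 to KO3. Cyp2f2 (chromosome 7, 27119909 to 27133660) stood at 54.3, 28.3 and 26.9 CPM in WT1 to WT3 and at 6.35, 7.12 and 11.8 CPM in KO1 to KO3. The WT libraries of Cyp2f2 spread widely, with WT1 far above WT2 and WT3, and its coefficient of variation in WT was 42.2%. The log2 fold changes were -2.50 (standard error 0.30) for Cyp2w1 and -2.11 (standard error 0.35) for Cyp2f2.

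Ces2f, a carboxylesterase that hydrolyses esters of lipids and drugs (chromosome 8, 104947356 to 104960047), had 6.98, 10.5 and 5.55 CPM in the WT libraries and 1.98, 2.07 and 1.62 CPM in KO1 to KO3. The values of KO1 to KO3 were close together, with a coefficient of variation of 12.6% against 33.3% among the WT libraries. Hsd17b14, a hydroxysteroid dehydrogenase (chromosome 7, 45554893 to 45567752), had 10.7, 10.9 and 12.2 CPM in the WT libraries and 3.62, 5.19 and 4.37 CPM in KO1 to KO3. It kept 39.1% of the WT mean, and Ces2f kept 24.6%.

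Plin5 coats lipid droplets in oxidative tissues such as heart and striated muscle (chromosome 17, 56111601 to 56117596, minus strand). It had 8.13, 5.40 and 5.38 CPM in the WT libraries and 1.98, 1.86 and 2.52 CPM in KO1 to KO3, or 33.7% of the WT mean. Acsm1, Cyp2f2 and Plin5 were highest in WT1 among the WT libraries, Cyp2w1 and Ces2f in WT2 and Hsd17b14 in WT3.

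**Figure D1:**
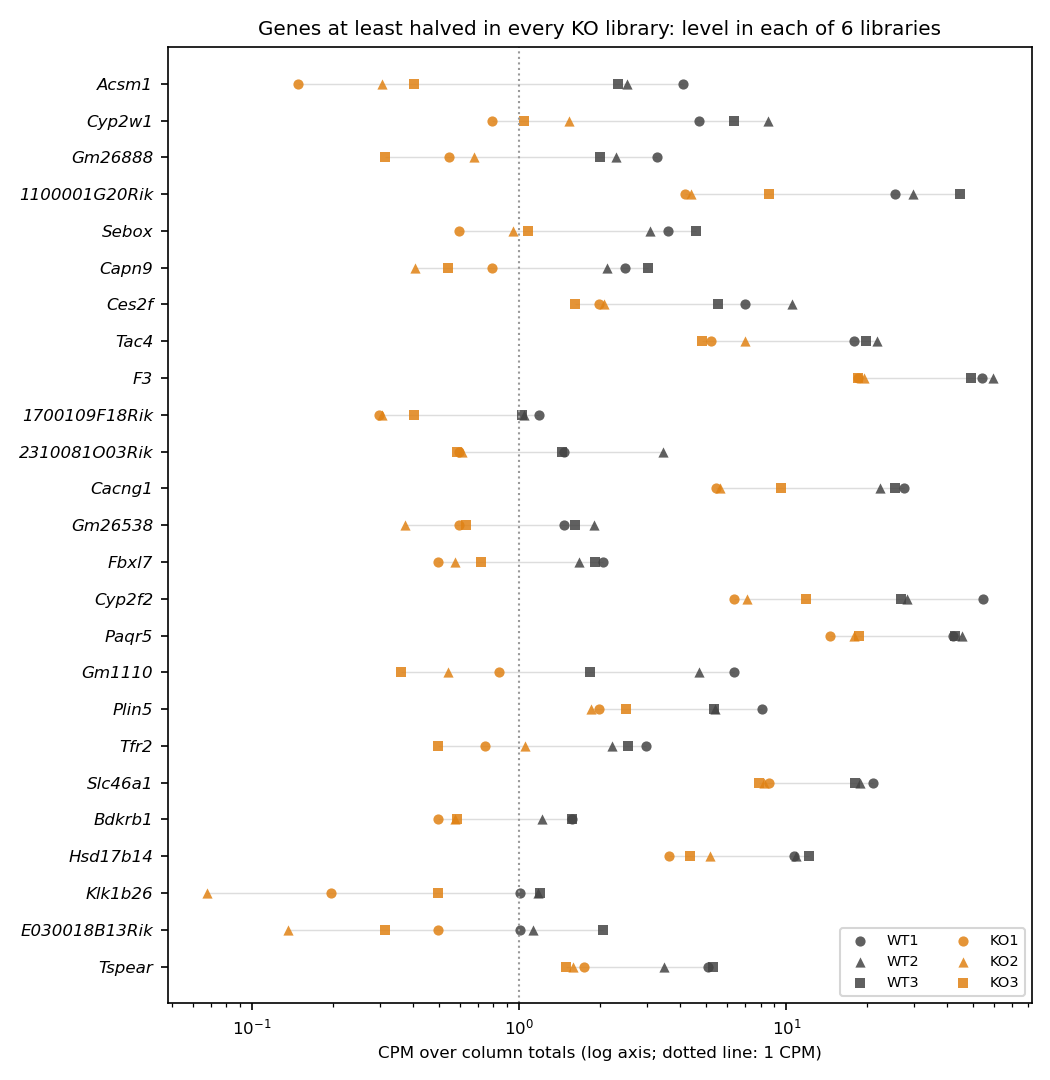
Level of each of the 25 genes in each of the 6 libraries, in CPM on a log axis, with WT libraries in grey and libraries labelled KO in orange; genes are ordered by the ratio of the highest KO to the lowest WT value, from 0.173 for Acsm1 to 0.497 for Tspear. In every row all orange points lie to the left of all grey points, which is what the rule asks.

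The surface signalling genes had some of the highest read counts. F3 encodes tissue factor, the membrane receptor that starts the extrinsic clotting cascade and that is present in epidermis and around vessels (chromosome 3, 121723537 to 121735048). It had 54.0, 59.2 and 49.3 CPM in the WT libraries and 18.5, 19.5 and 18.5 CPM in KO1 to KO3. The values hardly varied within a genotype, with a coefficient of variation of 9.18% in WT and 2.94% in the libraries labelled KO. Paqr5, a membrane progestin receptor (chromosome 9, 61953481 to 62026856, minus strand), had 41.9, 45.6 and 42.9 CPM in the WT libraries and 14.5, 17.9 and 18.7 CPM in KO1 to KO3. F3 and Paqr5 kept 34.7% and 39.2% of the WT mean.

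Tac4 encodes hemokinin, a tachykinin peptide made outside nerve cells (chromosome 11, 95261529 to 95269265). It had 17.9, 21.9 and 19.8 CPM in the WT libraries and 5.21, 6.99 and 4.82 CPM in KO1 to KO3, a log2 fold change of -1.80 (standard error 0.18). Bdkrb1, the B1 bradykinin receptor known for its induction after injury (chromosome 12, 105603085 to 105605428), was near the lower bound of the rule, with 1.58, 1.22 and 1.58 CPM in the WT libraries and 0.496, 0.576 and 0.585 CPM in KO1 to KO3. Its neighbour Bdkrb2, the constitutive B2 receptor, lies 7847 bases away and went the other way: it had 3.16, 2.95 and 1.96 CPM in the WT libraries and 6.00, 6.85 and 5.13 CPM in KO1 to KO3, higher by 1.16 on the log2 scale (edgeR quasi-likelihood test, adjusted p = 0.0236). The groups of Bdkrb2 did not overlap, and the rule did not choose it. With each library left out in turn its log2 fold change lay between 1.01 and 1.31, but it was called only without KO3, and the adjusted p rose to 0.116 in the other 5 fits.

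Of the proteases and secreted proteins, 1100001G20Rik (now Wfdc21; chromosome 11, 83746940 to 83752642) is a small secreted protein of the whey acidic protein class. It had 25.4, 29.8 and 44.6 CPM in the WT libraries and 4.17, 4.41 and 8.60 CPM in KO1 to KO3, or 17.2% of the WT mean. Per kilobase of exon it was the most abundant of the 25 genes, at 76.7 CPM per kilobase in WT against 21.4 for F3, 20.1 for Cacng1 and 18 for Cyp2f2. The lowest level per kilobase in WT was 0.289, in Fbxl7.

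Capn9, a calpain protease known from the lining of the digestive tract (chromosome 8, 124576111 to 124618731), had 2.48, 2.13 and 3.03 CPM in the WT libraries and 0.793, 0.407 and 0.540 CPM in KO1 to KO3. Klk1b26 is a kallikrein of the kind made by salivary glands (chromosome 7, 44012168 to 44016968). It had 1.01, 1.18 and 1.20 CPM in the WT libraries and 0.198, 0.0678 and 0.495 CPM in KO1 to KO3, which are 4, 2 and 11 counts. The mouse kallikreins are near-identical copies, so unique reads may be split among them, and 3 copies had counts in libraries labelled KO alone: Klk1b24 was at 0 in all WT libraries and at 0.942, 0.644 and 0.225 CPM in KO1 to KO3, and Klk1b3 was at 0 in all WT libraries and at 0.446, 0.136 and 0.0450 CPM, and Klk1b9 was at 0 in all libraries but KO2, at 0.0339 CPM.

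Cacng1 encodes the gamma subunit of the voltage-gated calcium channel of skeletal muscle (chromosome 11, 107703218 to 107716522, minus strand). It had 27.5, 22.4 and 25.5 CPM in the WT libraries and 5.46, 5.63 and 9.55 CPM in KO1 to KO3, or 27.4% of the WT mean. Of 29 tested skeletal muscle genes all 29 had a log2 fold change below 0, with a median of -1.04. Of these 4 were called lower, against 2.09% of all tested genes. With each library left out in turn, 26 were called lower without KO3 and 0 in each of the other fits. The summed level of the list ran from 20800 to 26100 CPM in WT and from 8690 to 15300 CPM in libraries labelled KO. All 32 listed genes were among the genes counted.

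The log2 fold change of Cacng1 was -1.86, and the lowest in the muscle list was -1.35. Other muscle genes lay near or below it: in the lists of muscle regulators and muscle chaperones, Hspb7 was at -1.98 (adjusted p = 0.0638, edgeR's quasi-likelihood test), Actc1 at -1.74 and Vgll2 at -1.62. Since the rule chose Cacng1 by its levels in these libraries and did not choose the muscle genes, the ratios that follow are a description and support nothing. Per 1000 CPM of the summed muscle genes, Cacng1 stood at 1.05, 1.08 and 1.11 CPM in WT1 to WT3 and at 0.628, 0.555 and 0.625 CPM in KO1 to KO3, or 55.7% of the WT mean, with no overlap between genotypes. The other muscle gamma subunit gene, Cacng6, did overlap on the same scale, with 0.599, 0.448 and 0.535 CPM per 1000 CPM in the WT libraries and 0.434, 0.488 and 0.527 CPM in KO1 to KO3. Other subunits of the muscle channel had log2 fold changes of -0.99 for Cacna1s, the pore subunit (adjusted p = 0.0877 in edgeR's quasi-likelihood test), -1.06 for Cacnb1, the beta subunit (adjusted p = 0.0505), and -0.48 for Cacna2d1, the alpha2-delta subunit (adjusted p = 0.131). None passed the threshold of 0.05. KO3 had the highest muscle sum and the highest Cacng1 level of the libraries labelled KO.

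**Figure D2:**
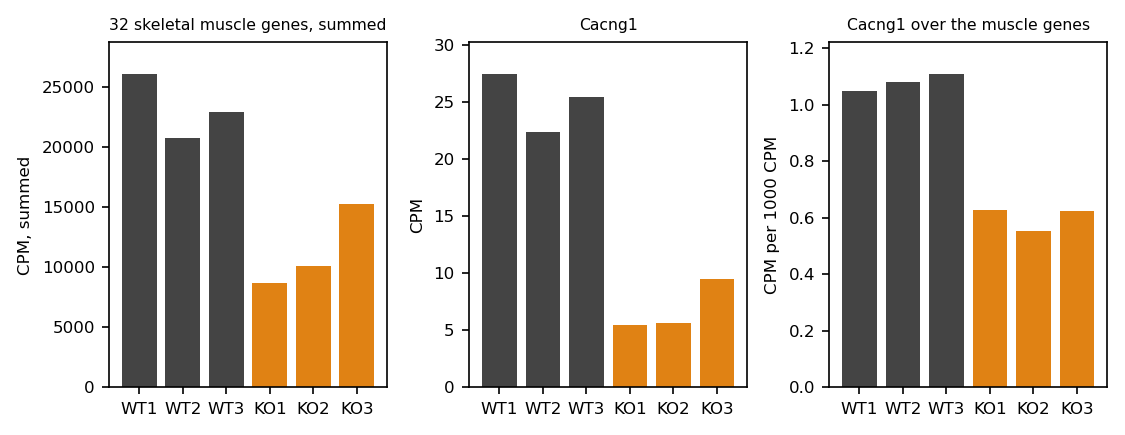
Left, summed CPM of the 32 skeletal muscle genes in each library; middle, CPM of Cacng1; right, Cacng1 in CPM per 1000 CPM of the summed muscle genes; WT bars are grey and bars of libraries labelled KO are orange. On the right the WT bars stand between 1.05 and 1.11 and the KO bars between 0.555 and 0.628, although the muscle sum of KO3 is well above that of KO1.

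The same scaling, again as a description, was applied to 2 more of the 25 genes. Plin5 per 1000 CPM of the muscle genes was 0.312, 0.259 and 0.235 CPM in the WT libraries and 0.228, 0.184 and 0.165 CPM in KO1 to KO3, or 71.6% of the WT mean, and per 1000 CPM of the adipocyte genes it kept 52.5%. In both scalings the genotypes did not overlap, although for the muscle genes WT3 and KO1 nearly met. The part of fat or muscle content in the values of Plin5 was not tested.

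Tspear, whose loss is known to disturb teeth and hair (chromosome 10, 77686569 to 77887021), had 5.07, 3.49 and 5.30 CPM in the WT libraries and 1.74, 1.59 and 1.49 CPM in KO1 to KO3. It had the ratio nearest to 0.5 among the 25 genes. Per 1000 CPM of 30 hair follicle genes it stood at 0.407, 0.254 and 0.346 CPM in the WT libraries and at 0.243, 0.152 and 0.144 CPM in KO1 to KO3, where WT2 and KO1 were close. Many small genes of hair keratin-associated proteins lie inside the span of Tspear on both strands. Whether they share exon bases with Tspear was not examined, so it is not known whether their reads bear on its counts.

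Sebox is a homeobox gene named for skin, embryo, brain and oocyte (chromosome 11, 78503447 to 78505081). It had 3.60, 3.08 and 4.57 CPM in the WT libraries and 0.595, 0.949 and 1.08 CPM in KO1 to KO3, or 23.3% of the WT mean. Fbxl7, which selects substrates for a ubiquitin ligase (chromosome 15, 26540459 to 26895580, minus strand), had 2.05, 1.68 and 1.92 CPM in the WT libraries and 0.496, 0.576 and 0.721 CPM in KO1 to KO3, or 31.7%. It overlaps several predicted genes on both strands.

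Slc46a1, the proton-coupled folate transporter (chromosome 11, 78465697 to 78472059), had 21.1, 18.9 and 18.1 CPM in the WT libraries and 8.58, 8.27 and 7.93 CPM in KO1 to KO3. At 42.6% of the WT mean it changed least of the 25 genes, with a log2 fold change of -1.22 (standard error 0.15). Tfr2, the second transferrin receptor, which senses iron in liver and red cell precursors (chromosome 5, 137569840 to 137587481), had 2.98, 2.22 and 2.56 CPM in the WT libraries and 0.744, 1.05 and 0.495 CPM in KO1 to KO3. Of 8 tested red cell genes 1 was called lower, with a list median of -0.69, against 2.09% of all tested genes called lower. The part of blood in the values of Tfr2 was not tested.

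Gm1110 and E030018B13Rik are protein-coding genes with no assigned function. Gm1110 (chromosome 9, 26879567 to 26923111, minus strand) had 6.36, 4.72 and 1.84 CPM in the WT libraries and 0.843, 0.543 and 0.360 CPM in KO1 to KO3, the second lowest percentage of the WT mean, 13.5%. The WT libraries of Gm1110 differed among themselves more than those of nearly all other members, with a coefficient of variation of 53.2%. E030018B13Rik (chromosome 7, 63916857 to 63920539) had 1.01, 1.13 and 2.05 CPM in the WT libraries and 0.496, 0.136 and 0.315 CPM in KO1 to KO3. It overlaps Klf13 on the opposite strand, which had 198 ± 24.9 CPM in WT and 177 ± 28 CPM in libraries labelled KO (SD, n = 3 each).

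The 4 non-coding genes were all at low levels. Gm26888 (chromosome 11, 119151651 to 119156994) had 3.27, 2.31 and 2.01 CPM in the WT libraries and 0.546, 0.678 and 0.315 CPM in KO1 to KO3. 2310081O03Rik (chromosome 4, 56220617 to 56224521, minus strand) had 1.47, 3.45 and 1.45 CPM in the WT libraries, where WT2 stood alone, and 0.595, 0.610 and 0.585 CPM in KO1 to KO3. Gm26538 (chromosome 18, 34796895 to 34803484, minus strand) had 1.47, 1.90 and 1.62 CPM in the WT libraries and 0.595, 0.373 and 0.630 CPM in KO1 to KO3. The antisense gene 1700109F18Rik (now Hoxd3os1; chromosome 2, 74703248 to 74716130, minus strand) had 1.19, 1.04 and 1.02 CPM in the WT libraries and 0.298, 0.305 and 0.405 CPM in KO1 to KO3.

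3 of these 4 genes lie opposite a coding gene. Tbc1d16, opposite Gm26888, had 27.3 ± 1.36 CPM in WT and 17.2 ± 4.70 CPM in libraries labelled KO, and Kdm3b, opposite Gm26538, had 78.3 ± 7.28 and 79.0 ± 7.88 CPM (SD, n = 3 each). Hoxd3 and Hoxd8, opposite 1700109F18Rik, had log2 fold changes of -0.52 (adjusted p = 0.212) and -0.89 (adjusted p = 0.131) in edgeR's quasi-likelihood test, and neither passed the threshold of 0.05. Over all 25 genes, 9 overlap a gene on the opposite strand by their spans from start to end, and shared exons were not looked for. The strand setting of the counting is not given in the sources used here, so reads of a gene and its partner may have been mixed where exons overlap.

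In the fit over all 15009 tested genes by edgeR's quasi-likelihood test, 24 of the 25 genes were called lower at the adjusted threshold of 0.05, with Klk1b26 outside, against 2.09% of all tested genes called lower and 4.38% called higher. The rule used the same libraries, so nothing is read from the count of 24. The log2 fold changes ran from -1.22 for Slc46a1 to -3.35 for Acsm1, with a median of -1.80, where the median of all tested genes was -0.02. KO3 held the highest of the 3 KO values in 12 genes, KO2 in 8 and KO1 in 5.

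Just inside the ratio of 0.5 were Tspear at 0.497, E030018B13Rik at 0.493 and Klk1b26 at 0.492. Just outside were Shh, the hedgehog ligand of the hair placode, at 0.504, the nucleotide receptor gene P2ry4 at 0.509 and the serpin gene Serpina1e at 0.512. At the bound of 1 CPM, E030018B13Rik and Klk1b26 had a lowest WT value of 1.01 CPM and 1700109F18Rik of 1.02 CPM, and Trim9 and Gm26742 stayed outside with lowest WT values of 0.982 and 0.863 CPM. Among keratins only Krt2, a keratin of the upper epidermis, met the other conditions, with 2520, 3310 and 2200 CPM in the WT libraries and 121, 90.0 and 134 CPM in KO1 to KO3.

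With other scalings of the libraries some of the 25 genes left the rule. TMM scaling left 19 of them, DESeq2's size factors 16 and upper-quartile scaling 23, and 16 met the rule under all 3. The 9 that did not were 1700109F18Rik, Plin5, Tfr2, Slc46a1, Bdkrb1, Hsd17b14, Klk1b26, E030018B13Rik and Tspear.

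Genes halved in every library labelled KO were of lower level and shorter than the genes they were drawn from. The median WT level of the 25 was 4.31 CPM against 24.8 CPM for the 14303 genes, and 14 of the 25 had a WT mean under 5 CPM. The median exon length was 2181 bases against 4366 bases. Protein-coding genes made up 84.0% of the 25 and 95.4% of the genes they were drawn from.

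The 25 genes lay on 13 chromosomes, with 6 on chromosome 11 and 5 on chromosome 7, which hold 8.37% and 7.85% of the genes drawn from. Slc46a1 and Sebox are 31387 bases apart on chromosome 11, with Sarm1 and Vtn between them. Sarm1 had 1.37, 1.36 and 1.32 CPM in the WT libraries and 0.595, 1.15 and 1.40 CPM in KO1 to KO3, and Vtn had 6.15, 5.76 and 6.02 CPM in the WT libraries and 1.54, 2.14 and 5.22 CPM in KO1 to KO3. Both overlapped or nearly met between genotypes through KO3, and neither passed the threshold (adjusted p = 0.492 and 0.149, edgeR's quasi-likelihood test). The nearest tested genes on either side of the 25 were 50 genes, none of them a member. Of these 1 was called lower, Plin4 beside Plin5, and 2 were called higher, Bdkrb2 beside Bdkrb1 and Kif23 beside Paqr5. Kif23 was called in 1 of 6 fits with a library left out, with an adjusted p of up to 0.147 in edgeR's quasi-likelihood test, and not with the replicate block.

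Relatives by gene family were compared for 16 families chosen after the members were known. Of 88 tested relatives 6 were called lower, or 6.82%, and 2 higher, or 2.27%, with a median log2 fold change of -0.17, where 2.09% of all tested genes were called lower and 4.38% higher. Those called lower were the P450 genes Cyp2d22 and Cyp2s1, the perilipin Plin4, the hair follicle calpain Capn12, the folate receptor gene Folr2 and the transporter gene Slc46a2, and those called higher were Bdkrb2 and Fbxl12.

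With each library left out in turn every one of these 8 kept its direction, and all were called without KO3. Without other libraries, Cyp2s1 and Capn12 were called in 1 more fit each and the other 6 in none. With all libraries kept, Plin4, Cyp2d22, Folr2 and Slc46a2 were not called under DESeq2's size factors, and these 4, Capn12 and Fbxl12 were not called with the replicate number as a block. Cyp2s1 and Bdkrb2 were called under all the other tools, scalings and filters tried.

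The closest relatives of several members did not share their levels. Acsm3, the only other tested gene of the Acsm family, had 4.51 ± 1.93 CPM in WT and 4.52 ± 1.64 CPM in libraries labelled KO (SD, n = 3 each). Ces2g, which lies 1670 bases from Ces2f, had 52.1 ± 13.1 and 57.7 ± 3.85 CPM. The 6 tested relatives of Hsd17b14 had log2 fold changes from -0.24 to 0.18, and the 6 relatives of Paqr5 from -0.58 to 0.05, with none called. In other families relatives went further in the direction of the member. The 3 tested relatives of Cacng1 ran from -1.15 to -0.29 and the 7 of 1100001G20Rik from -1.11 to 0.39, also with none called. Around F3, the 7 tested genes of the tissue factor pathway ran from -0.20 to 0.76 with none called, among them Tfpi, the inhibitor of tissue factor, at -0.20 (standard error 0.25) and Thbd, thrombomodulin, at 0.60 (standard error 0.16). The receptor of the peptide of Tac4, Tacr1, had 2.37, 1.86 and 2.52 CPM in the WT libraries and 2.08, 3.05 and 8.29 CPM in KO1 to KO3, so that KO3 alone was high.

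Among iron genes, Tfrc, the first transferrin receptor, had a log2 fold change of 0.74 (adjusted p = 0.106 in edgeR's quasi-likelihood test), opposite in sign to that of Tfr2 and not called. Hfe2, the hemojuvelin gene of muscle and liver, had the same sign as Tfr2, at -1.13 (adjusted p = 0.072), and was not called either. Among folate genes, Folr2, a folate receptor of macrophages, had 21.5 ± 2.69 CPM in WT and 12.5 ± 2.60 CPM in libraries labelled KO (SD, n = 3 each), a log2 fold change of -0.77 (adjusted p = 0.0499, edgeR's quasi-likelihood test), and Slc19a1, the reduced folate carrier, had a log2 fold change of 0.12 (adjusted p = 0.666, edgeR's quasi-likelihood test). In P450 family 2 the relatives ran from -1.69 to 0.31. Of those, Cyp2a5, the nearest tested gene on the left of Cyp2f2, was high in WT1 only, with 9.74, 1.36 and 1.62 CPM in the WT libraries and 1.24, 1.39 and 1.35 CPM in KO1 to KO3.

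**Figure D3:**
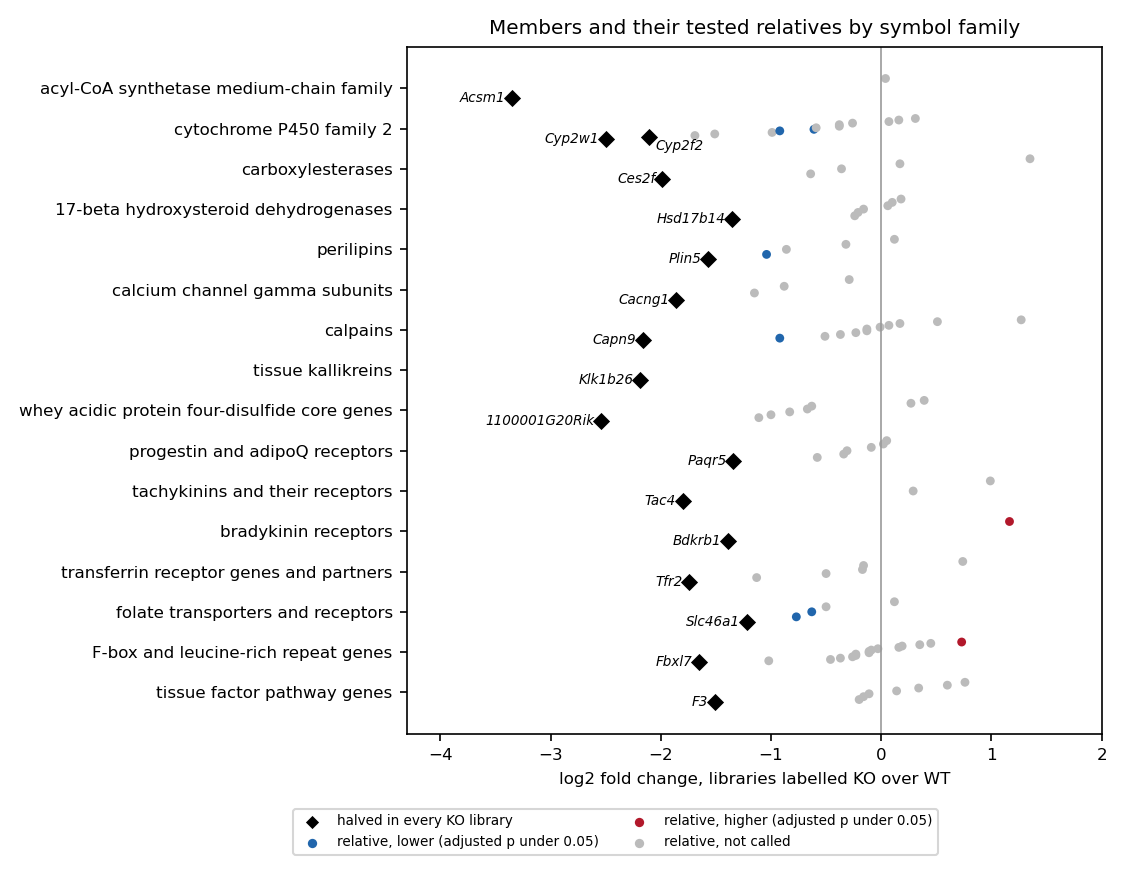
Log2 fold change (libraries labelled KO over WT) of the members, as black diamonds, and of their tested relatives, as dots coloured by call, in 16 families. Relatives spread around 0 in most rows, from -1.69 to 1.35, and Bdkrb1 and its only relative, at -1.39 and 1.16, lie on opposite sides.

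For tissue and function, 25 lists of marker and pathway genes were set beside the members, and 9 of the 25 members were in a list. The lists were chosen with earlier results of these data known, so being in a list does not show the tissue of origin of a member. Over all tested genes 2.09% were called lower and 4.38% higher. The median log2 fold change was below 0 in 22 lists and above 0 in 3, those of basal epidermis (0.12), suprabasal epidermis (0.44) and T cells (0.72). For T cells the summed level went against the median, at 138 to 180 CPM in WT and 78.1 to 149 CPM in libraries labelled KO. Most of that sum was Thy1, which is also in the list of dermal fibroblasts, at 143, 126 and 163 CPM in the WT libraries and 62.1, 69.0 and 119 CPM in KO1 to KO3, and the other 9 tested T cell genes had log2 fold changes above 0. Only genes with reads were counted, so a listed gene without reads would be absent rather than at 0. Of 26 listed genes of minor salivary glands, for example, 19 were among the genes counted. Whether the absent genes lacked reads or carry another symbol was not examined. The suprabasal list, with 4 of 20 tested genes called higher, summed to 22900 to 30300 CPM in WT and 34800 to 52800 CPM in libraries labelled KO. Krt2, a keratin of the upper epidermis with a log2 fold change of -4.52, was placed in another list and is not in this sum.

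The list of cytochrome P450, esterase and flavin monooxygenase genes held 4 members, Cyp2f2, Cyp2w1, Ces2f and Hsd17b14. Of all tested genes 2.09% were called lower and 4.38% higher. With these 4 members 9 of 26 tested genes of the list were called lower and none higher, and without them 5 of 22, at a median of -0.47. Those 5 were Cyp1a1, which oxidises aromatic hydrocarbons (log2 fold change -0.75), Cyp2d22 (-0.61), Cyp2s1 (-0.92), the steroid enzyme Cyp17a1 (-1.82) and Cyp26b1, which breaks down retinoic acid (-0.77). The summed level of the list was 1260 to 1590 CPM in WT and 1150 to 1180 CPM in libraries labelled KO. Por, the reductase that supplies electrons to these enzymes, had 99.7 ± 6.81 and 98.0 ± 8.24 CPM (SD, n = 3 each).

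The list of PPAR target and fatty acid oxidation genes held 2 members, Plin5 and Acsm1. Of all tested genes 2.09% were called lower and 4.38% higher. Without Plin5 and Acsm1, 6 of 30 tested genes of the list were called lower and none higher, with a median of -0.30. Among them were Pdk4, a brake on glucose oxidation (-2.07), the mitochondrial carrier gene Ucp3 (-1.67), the fatty acid binding genes Fabp3 (-1.13) and Fabp4 (-0.65), and Mlycd, which removes malonyl-CoA (-0.94). The acyl-CoA dehydrogenases, trifunctional protein and carnitine palmitoyltransferases of beta oxidation had values of both signs, with Acadm at 0.42, Cpt1a at 0.30, Hadhb at 0.21, Hadha at 0.14, Acadl at -0.10, Cpt2 at -0.12 and Acadvl at -0.21, and none of these was called. Of the receptors, Pparg had 13.1 ± 3.65 CPM in WT and 12.3 ± 1.80 CPM in libraries labelled KO (SD, n = 3 each), and Ppara and Ppard had log2 fold changes of -0.32 and 0.29 without a call.

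Among lists of cell types, the members Paqr5 and Capn9 had been placed, with earlier results of these data known, in that of oral mucosa and lip vermilion. Its other tested genes, 15 in number, had a median of -0.28 with 2 called lower, Krt2 and Serpinb13, and 1 called higher, Krt16. Krt2 is a keratin of the upper epidermis that was placed in this list, so its call does not mark oral mucosa. The sum of the list, Krt2 included, overlapped between genotypes, from 6570 to 12900 CPM in WT and from 5850 to 8450 CPM in libraries labelled KO. The WT maximum was that of WT1 with its high Krt4 and Krt13. Neither Paqr5 nor Capn9 was highest in WT1, and the part of oral mucosa in their levels was not tested. The median of the whole list, -0.57, became 0.13 without WT1. Klk1b26 was in the list of minor salivary gland genes, whose sum was 101 to 132 CPM in WT and 166 to 247 CPM in libraries labelled KO. Of 26 listed genes 19 were counted and 10 tested, with 3 called higher and none lower. Most of the sum was Slc12a2 and Aqp5. Slc12a2 had 74.3, 101 and 68.8 CPM in the WT libraries and 107, 124 and 88.2 CPM in KO1 to KO3. Aqp5 had 11.9, 8.93 and 10.8 CPM and 83.2, 69.7 and 51.8 CPM. The part of salivary gland tissue in this sum was not tested.

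Over all tested genes 2.09% were called lower and the median log2 fold change was -0.02. Several other tissues of the lip had lower list medians. These were -0.69 for hair follicle (5 of 30 tested genes called lower), -0.38 for sebaceous gland (3 of 21, and 2 higher), -0.77 for dermal fibroblasts (0 of 20), -0.86 for adipocytes (2 of 15), -0.60 for Schwann cells and nerve (2 of 15) and -0.51 for smooth muscle and pericytes (2 of 12). The sums of hair follicle genes, 12500 to 15300 CPM in WT and 7150 to 10500 CPM in libraries labelled KO, did not overlap. Nor did those of adipocyte genes, 781 to 798 and 471 to 535 CPM, or dermal fibroblast genes, 9510 to 11400 and 4010 to 9330 CPM. Schwann cell and nerve sums, 783 to 866 and 485 to 688 CPM, and smooth muscle and pericyte sums, 1250 to 1560 and 537 to 933 CPM, were apart too. The largest single part of the smooth muscle and pericyte sum was Des, which is also in the skeletal muscle list. Des had 906, 575 and 669 CPM in the WT libraries and 186, 255 and 450 CPM in KO1 to KO3. All 12 tested genes of that list had log2 fold changes below 0, from -1.27 for Des to -0.05 for Myh11. Most of the 25 lists had sums without overlap, in some of them with the higher sums in libraries labelled KO. The share of all genes whose levels separate in this way was not counted, so nothing is read from the separation. Sebaceous sums did overlap, from 10600 to 10900 CPM and from 9330 to 11100 CPM. Glucocorticoid-responsive genes had a median of -0.34 (2 of 24 called lower) and imprinted genes of -0.76 (4 of 26). The median of the 25 members, -1.80, was below every one of these, as the rule that chose them makes it. The part of tissue content in the levels of the members was not tested.

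**Figure D4:**
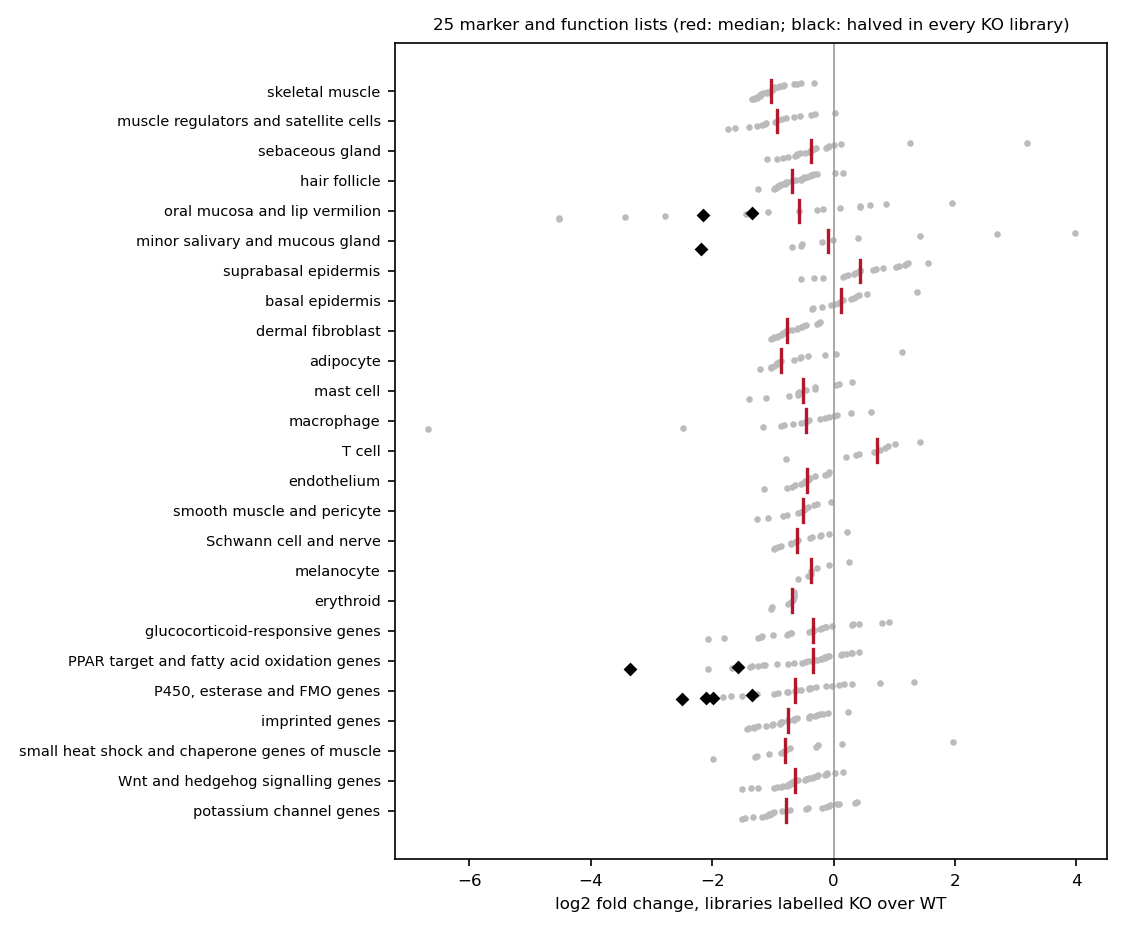
Log2 fold change (libraries labelled KO over WT) of every tested gene in 25 marker and function lists, as grey dots, with members of the 25 halved genes as black diamonds and the list median as a red line. Medians lie between -1.04 for skeletal muscle and 0.72 for T cells, and each of the 9 members that belong to a list lies below the median of its list.

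The promoters of the members were searched for 8 short motifs on both strands, over 250 bases before and 50 bases after the RefSeq start, and set beside all 27025 promoters of the table. CAGCTG was in 7 of 17 member promoters (41.2%), those of 1700109F18Rik, Acsm1, Ces2f, Cyp2f2, Cyp2w1, Fbxl7 and Slc46a1, and in 16.1% of all promoters. The looser E-box CANNTG, which contains it, was in 70.6% and in 72.1%. TGACCT was in 4 of 17 (23.5%), namely Acsm1, Cyp2f2, Gm1110 and Plin5, and in 16.0% of all. The E-box of Cyp2w1 is not within the 250 bases before the start. In the printed bases the half-site of Acsm1 starts 107 bases before the RefSeq start and its E-box 13 bases before. CATTCC, a TEAD motif, was in 17.6% and 14.6%, AGAACA, a glucocorticoid receptor half-site, in 11.8% and 19%, and TATAAA in 5.88% and 14.2%. TAAAAAT, the core of a MEF2 site, and GGATTA, a homeodomain motif, were in 0 member promoters and in 6.65% and 7.16% of all. Cacng1, the muscle channel gene, had no sequence at hand and was not searched. The median GC content was 54.7% in the member promoters and 52.7% in all. These counts describe letters in 17 windows and were not tested.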

How the data were processed

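The data are read counts per gene from RNA-Seq of top lip tissue, 3 WT and 3 KO mice, 1 library each. The authors mapped paired reads to GRCm38 with TopHat2 2.0.8 and Bowtie2 2.1.0 and deposited the raw counts that HTSeq-count gave for uniquely mapped reads, without normalization. The strand setting is not given in the sources used here. All 6 columns were used, and 0 rows named no gene.

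CPM values are counts over the column total. A gene entered the fit if 3 or more libraries held 1 CPM or more of it, and 15009 genes were fitted with edgeR 4.0.16 in R 4.3.3 (TMM, estimateDisp, glmQLFit, glmQLFTest), with Benjamini-Hochberg adjustment over all tested genes and a threshold of 0.05. Fold changes compare libraries labelled KO with those labelled WT. Alternatives used edgeR's exact test, which the study's methods name, DESeq2 1.42.0 on unfiltered counts, limma 3.58.1 (voom), other scalings and filters, a replicate block and each library left out in turn. The fit was tested on simulated data. The p-values weigh the difference between genotypes against the spread between mice within a genotype, with 3 mice in each.

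The members and the lists were chosen with earlier results of these data known, and families and roles after values were seen. All members are named, with their values in each library. Nearest genes at the thresholds, list members and Gtf2ird1 are named by rule, and other genes were named after their values were seen. Some genes that the rule names are not reported here. Positions come from GENCODE vM21 on GRCm38, in which 24858 symbols were found, or 26112 with older names.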

Additional observations from a re-analysis of the deposited data

How the results depend on the processing

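The number of genes that met the rule was 10 with a lowest WT level of 5 CPM, 10 with a ratio of 0.4 and 72 with a ratio of 0.6. With each library left out in turn it was 34 to 194, where 194 is without KO3. Leaving out a library can only add genes to the rule, so each of these sets held all 25 genes by construction. Under the other 6 planned settings of the rule the number of genes lay between 17 and 36. Of the 25 genes, 11 to 25 were called lower with each library left out. The low end is without WT1, and without any 1 WT library only 14 of the 25 still passed the filter of 1 CPM in 3 libraries. In the 14 that were tested in all 6 of these fits, 9 were called in each. Over all genes, 208 to 2496 were higher and 18 to 2395 lower with a library left out, the upper values without KO3. edgeR's exact test gave 1165 higher and 1073 lower, DESeq2's Wald test 1511 and 898. For lower genes, DESeq2's size factors gave 207, no filter 204 and at least 10 counts in every library 204. The list medians with a library left out ran from -0.84 to -0.42 for hair follicle, from -0.54 to -0.19 for sebaceous gland, from -0.75 to 0.13 for oral mucosa and lip vermilion, from -0.41 to -0.13 for glucocorticoid-responsive genes and from -0.86 to -0.58 for imprinted genes, and 0.13, a reversal, is without WT1. Skeletal muscle ran from -1.38 to -0.78, dermal fibroblast from -1.18 to -0.44, PPAR targets from -0.44 to -0.22 and P450 and esterase genes from -0.74 to -0.50. Numbers of list genes called lower also moved with a library left out. Without KO3 they were 18 for hair follicle, 13 for PPAR targets and 14 for imprinted genes. Without any other library they were 0 to 3, 1 to 6 and 0 to 1. The cause of these shifts was not tested.

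Replicate numbers are shared by WT and KO, but deviations of same-numbered libraries correlated at -0.192, 0.293 and 0.312, so the numbers were not taken as pairs, and not every library correlated best with its own number. With the replicate number as a block 580 genes were higher, 217 lower and 20 of the 25 called lower. Genes under 5 CPM, 14 of the 25, rest on few counts, with as few as 2 in a library, so their percentages are imprecise.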
